A study of Mus musculus with 9 samples.

Results

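The regenerated Twist1+/- coronal suture was compared with the wild-type coronal suture, using the libraries titled REG and WT, which are 6 of the 9 libraries in the series. This suture joins the frontal and the parietal bone on each side of the skull by fibrous tissue. The REG group was Twist1+/- mice given suture regeneration surgery at the age of 1 month (3 libraries), and the WT group was wild-type mice with no surgery (3 libraries). All mice were C57BL/6, and the sutures were taken at 7 months of age for RNA sequencing. The design text of the series speaks of a time after an induction, which the sample labels do not name, so the age of the labels is used. The 3 unoperated Twist1+/- libraries (MUT) are no side of the comparison. They enter the estimate of the spread, the filter that sets which genes are tested, and the constant 0.367 of that filter and of the log2 scale. The shares of all genes and the adjusted p-values given below therefore depend on the MUT libraries too. REG differs from WT in genotype and in surgery at once, and these cannot be told apart here.

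A suture holds mesenchymal stem cells and fibrous tissue between bone fronts, where osteoblasts lay down matrix and osteoclasts dissolve it. The skull bones beside it hold marrow, in which blood cells form and divide, and muscle attaches to the skull nearby. Twist1 encodes a basic helix-loop-helix transcription factor of cranial mesenchyme, and loss of 1 copy is a known cause of early closure of the coronal suture. The tissue sample is a mixture of these cells, so fewer cells of a type and less RNA per cell cannot be told apart.

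Before any gene is described, the 3 REG libraries have to be told apart. Over the 29107 genes tested, REG replicate 3 ranked genes most like WT, with Spearman correlations of 0.91 to 0.95 against the WT libraries. REG replicate 1 had 0.80 to 0.82 and REG replicate 2 had 0.70 to 0.73 (all across genes, which are not independent). REG replicates 1 and 2 correlated with each other at 0.73, and the WT libraries with each other at 0.925 to 0.946. At 0.953, REG replicate 3 against WT replicate 2 was above every pair of WT libraries. On the value + 0.367 scale, REG replicate 1 had 2436 genes more than 2-fold above the highest WT library (8.37%) and 3546 more than 2-fold below the lowest (12.2%). The counts were 3797 (13.0%) and 5657 (19.4%) in REG replicate 2, and 234 (0.804%) and 313 (1.08%) in REG replicate 3. The deposited library names end in a number after the letter S, which REG replicate 1 shares with WT replicate 2 and REG replicate 2 with WT replicate 3, while that of REG replicate 3 occurs once. The names of REG replicates 1 and 3 both hold the number 2 after REG, and these libraries correlated at 0.80. What these numbers mean, which libraries were sequenced together and whether each came from a different animal is not given in the sources used here, and a run effect was not tested. Estimated reads on genes were 39377876, 30272185 and 18276494 in REG and 16356391, 20019712 and 19886755 in WT. Receptor genes of the olfactory and vomeronasal sensory neurons took 743 to 4678 reads per 1e+06 (RPM) in REG and 1673 to 3397 RPM in WT. The 13 mitochondrially encoded protein genes took 0.648% to 1.29% of reads in REG and 1.09% to 1.57% in WT. The bone and suture genes Col1a1 and Runx2 were at 7748 or more and 29.6 or more in all 6 libraries. One abundant gene, singled out after its values were seen, parts the libraries in the same way: Lars2, the mitochondrial leucine tRNA ligase, had deposited values of 6319 to 8226 in WT and 6749 in REG replicate 3, against 569 and 593 in the other 2 REG libraries.

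Values below are deposited values, which are read numbers scaled so that the upper quartile is equal in every library, and they compare a gene between libraries, not genes with each other. Tests are limma's on log2(value + 0.367), adjusted over all 29107 genes, and log2 changes are REG minus WT on that scale with their standard error. No gene passed an adjusted p of 0.05 in either direction (0% higher, 0% lower). The lowest adjusted p was 0.35, and at an unadjusted p under 0.05 there were 620 genes higher in REG (2.13%) and 2135 lower (7.34%). In the authors' deposited table for this pair of groups, 0 genes had an FDR under 0.05 and the lowest FDR was 0.418, with 4685 genes at p under 0.05. With REG replicate 3 left out, 413 genes were called higher (1.43% of 28808 tested) and 1203 lower (4.18%), and with any single other WT or REG library left out none was called. The 3 REG libraries lay entirely above the 3 WT libraries for 1172 genes (4.03%) and entirely below for 3520 (12.1%). The median log2 change of all genes was −0.18, and trimmed-mean scaling moved it to 0.13, so each list below is read against that median. Summed reads of a list are given per 1e+06 estimated reads. The deposited values themselves sum to 339406 to 446424 in REG and 462672 to 528682 in WT, so a list stands higher in REG against WT in RPM than in deposited values.

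**Figure D1:**
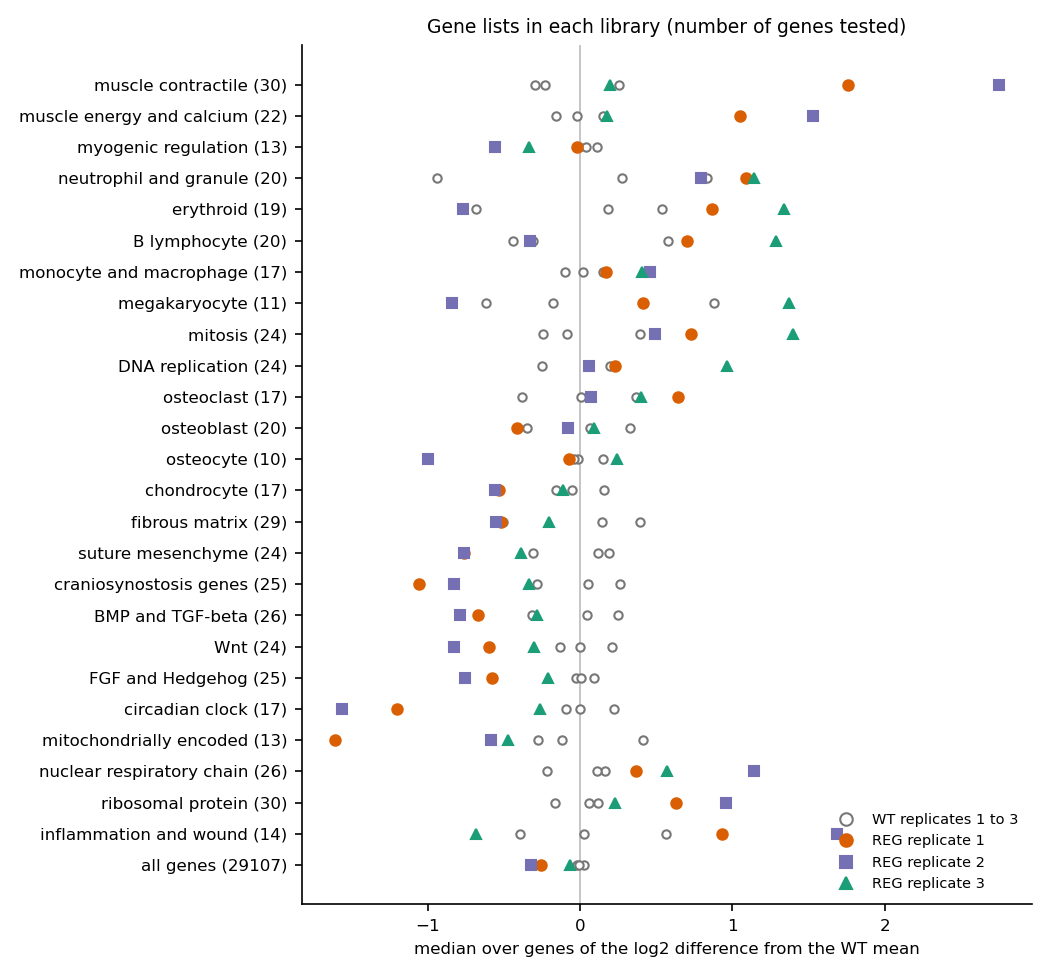
Median log2 difference from the WT mean (horizontal axis) over the tested genes of each list, 1 point per library. Open circles are the 3 WT libraries and filled symbols the 3 REG libraries. REG replicates 1 and 2 stand at 1.76 and 2.75 for muscle contractile genes where REG replicate 3 is at 0.20, while for mitosis genes REG replicate 3 is the highest at 1.40.

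Twist1 itself (chromosome 12, 33957671 to 33959829, GRCm38) was measured at 16.2, 23.3 and 23.1 in WT and at 3.76, 9.19 and 12.2 in REG. All 3 REG libraries were below all 3 WT libraries, but the change did not pass the test (log2 change −1.40 ± 0.76, adjusted p = 0.567).

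Skeletal muscle contractile genes had the highest median change of the 39 gene lists, and REG replicates 1 and 2 carried it. Muscle contraction rests on thick filaments of myosin and thin filaments of actin, which troponin opens to calcium released from internal stores. The 30 contractile genes summed to 2977 and 3673 RPM (estimated reads) in REG replicates 1 and 2, 368 in REG replicate 3, and 215, 411 and 203 in WT. REG replicate 3 thus lay inside the WT range. Their median log2 change was 1.48, with 15 of 30 at an unadjusted p under 0.05 and higher, none lower (2.13% of all genes were higher). The groups did not overlap for 4 of 30, all higher (4.03% of all genes). By library, 17 of the 30 genes were more than 2-fold above the highest WT library in REG replicate 1, 20 in REG replicate 2 and 1 in REG replicate 3 (8.37%, 13.0% and 0.804% of all genes). REG replicates 1 and 2 were also the deepest libraries and the 2 with low Lars2, and the part of this in the result was not tested.

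Myh1, the fast type IIx myosin heavy chain (chromosome 11, 67200052 to 67224575), had deposited values of 1.09, 1.03 and 0.835 in WT and 117, 105 and 6.16 in REG. It was the only contractile gene for which REG replicate 3 was more than 2-fold above every WT library. Its log2 change was 5.01 ± 0.95 (adjusted p = 0.466), and 6.37 without REG replicate 3 (adjusted p = 0.00454). Myosin heavy chain genes have near-identical copies, so the split of reads among them is uncertain. Acta1, the actin of skeletal muscle, was at 1.29, 5.48 and 1.10 in WT and 47.5, 37.7 and 5.85 in REG (3.21 ± 0.81, adjusted p = 0.498). REG replicate 3 cleared the highest WT library only narrowly. Tnni2, the inhibitory troponin subunit of fast fibres, was at 0.286, 2.51 and 0.765 in WT and 24.5, 47.5 and 2.22 in REG, where REG replicate 3 was within the WT range. Ttn, the giant spring protein titin, was at 29.8, 79.2 and 20.5 in WT and 560, 489 and 61.9 in REG, with the same pattern. Without REG replicate 3, 13 of the 30 contractile genes were called higher (1.43% of all genes) and none lower. Among them were Acta1 (4.14, adjusted p = 0.0173), Tnni2 (4.74, adjusted p = 0.0112) and Ttn (3.83, adjusted p = 0.0134).

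**Figure D2:**
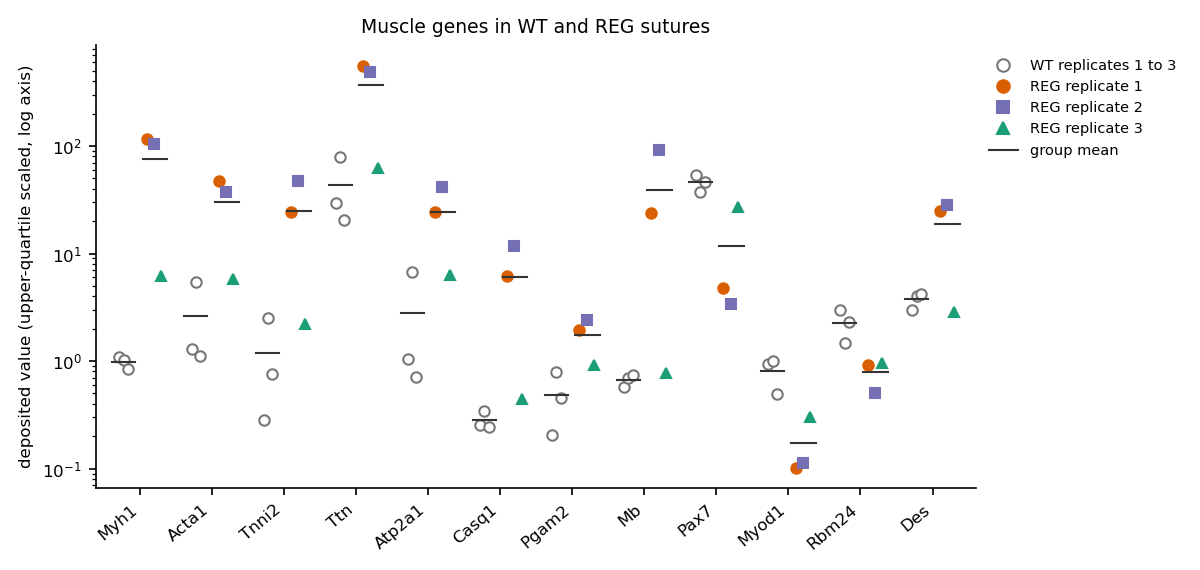
Deposited values (log axis) of muscle genes in each library, with WT as open circles, REG as filled symbols and lines at group means. REG replicates 1 and 2 lie far above WT for the contractile and calcium genes, for example 117 and 105 for Myh1, while REG replicate 3 lies near WT, and Pax7 and Myod1 are lower in all 3 REG libraries.

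The promoters of the 3 contractile genes of smallest p with a single RefSeq entry are shown because Twist1 and the muscle factor MyoD both bind the basic helix-loop-helix letters CANNTG, which are in capitals. Bases run 5′ to 3′ on the gene's strand and end before the first transcribed base (RefSeq, GRCm38.p6).
Myh1, chr11:67199852-67200051, plus strand: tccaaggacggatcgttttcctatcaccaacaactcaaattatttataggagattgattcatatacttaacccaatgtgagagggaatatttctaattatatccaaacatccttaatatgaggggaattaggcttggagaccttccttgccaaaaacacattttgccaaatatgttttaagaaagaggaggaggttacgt
Acta1, chr8:123894776-123895025, minus strand: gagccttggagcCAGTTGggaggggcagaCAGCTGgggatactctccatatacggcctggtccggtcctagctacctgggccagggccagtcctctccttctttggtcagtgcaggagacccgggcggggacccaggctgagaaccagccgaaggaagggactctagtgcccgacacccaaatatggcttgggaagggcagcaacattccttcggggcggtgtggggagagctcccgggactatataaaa
Ttn, chr2:76982548-76982797, minus strand: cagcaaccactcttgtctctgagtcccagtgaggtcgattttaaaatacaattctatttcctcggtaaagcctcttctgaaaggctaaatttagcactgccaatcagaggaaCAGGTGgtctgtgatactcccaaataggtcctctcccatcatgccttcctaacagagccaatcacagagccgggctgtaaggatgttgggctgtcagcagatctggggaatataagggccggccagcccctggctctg
The Acta1 stretch holds 2 matches and the Ttn stretch 1. The Myh1 stretch holds 0, which says only that the letters are not in this window. On either strand, 85.2% of 27 promoters of 300 bases from the contractile list and 72.3% of all 32851 promoters held CANNTG.

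Genes of muscle energy supply and calcium handling had the same order of libraries. The list summed to 394 and 1031 RPM in REG replicates 1 and 2, 79.1 in REG replicate 3 and 64.0 to 87.6 in WT. Of its 22 tested genes 11 were higher at an unadjusted p under 0.05 (2.13% of all genes), none lower, and the median was 0.99. Mb, the oxygen store myoglobin, was at 0.569, 0.702 and 0.735 in WT and 23.9, 92.7 and 0.776 in REG. Atp2a1, the calcium pump of fast fibres, was at 1.05, 6.72 and 0.709 in WT and 24.4, 41.7 and 6.33 in REG. Casq1, which binds calcium inside the store, was at 0.254, 0.344 and 0.242 in WT and 6.12, 11.7 and 0.447 in REG, and Pgam2, a muscle enzyme of glycolysis, was at 0.205 to 0.791 in WT and 1.95, 2.41 and 0.929 in REG. The REG replicate 3 values of Mb, Casq1 and Pgam2 were above the highest WT library by less than 2-fold. On leaving out REG replicate 3, 8 of the 22 were called higher (1.43% of all genes) and none lower, with Mb at 5.52 (adjusted p = 0.00792).

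Regulators of muscle went both ways, with a list median of −0.04. Pax7, the transcription factor of satellite cells, was at 54.0, 37.5 and 46.8 in WT and 4.75, 3.38 and 27.2 in REG (−2.51 ± 0.81, adjusted p = 0.5). Myod1, the factor that commits cells to muscle, was at 0.938, 1.00 and 0.489 in WT and 0.102, 0.113 and 0.299 in REG. Rbm24, an RNA-binding protein of muscle splicing, was at 1.49 to 2.97 in WT and 0.503 to 0.962 in REG. All 3 lay lower in every REG library than in any WT library, which held for 4 of the 13 tested genes of the list (12.1% of all genes). More than 2-fold above the highest WT library were 3 genes in REG replicate 1, 3 in REG replicate 2 and 0 in REG replicate 3 (8.37%, 13.0% and 0.804% of all genes). More than 2-fold below the lowest were 1, 3 and 0 (12.2%, 19.4% and 1.08% of all genes). Des, the intermediate filament desmin of differentiated fibres, was at 2.95 to 4.21 in WT and at 24.9, 28.3 and 2.86 in REG.

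Neutrophil, erythroid, monocyte and B lymphocyte genes were higher in RPM as well, and here REG replicate 3 often lay on the same side. Other marrow lists overlapped in RPM, as given below. Neutrophils store antimicrobial proteins in granules that are filled while the cells mature in marrow. The 20 neutrophil and granule genes summed to 9848, 11936 and 3697 RPM in REG and 2842, 1711 and 567 in WT, with no overlap, and the summed deposited values did not overlap either (1647 or more in REG, 1312 or less in WT). Their median log2 change was 0.98. Of the 20, 5 were higher at an unadjusted p under 0.05 and 6 did not overlap and were higher (2.13% and 4.03% of all genes). None was lower in either count. The median was 0.37 without WT replicate 3, which had the lowest values. The library medians were 1.09, 0.79 and 1.14, so they differed little among REG replicates, and WT replicate 1 stood at 0.84.

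S100a8 and S100a9 form calprotectin, the main cytosolic protein of neutrophils. S100a8 was at 106, 71.1 and 21.4 in WT and 734, 842 and 123 in REG (2.95 ± 0.86, adjusted p = 0.498). S100a9 was at 249, 153 and 50.9 in WT and 1718, 2031 and 313 in REG. In both genes REG replicate 3 was above WT by less than 2-fold of its highest library. Camp, the antimicrobial peptide cathelicidin, was at 61.4, 27.9 and 7.89 in WT and 284, 377 and 82.1 in REG. Fcnb, a lectin of maturing granulocytes, was nearly equal in the REG libraries, at 22.2, 20.3 and 19.6 against 7.46, 5.90 and 2.46 in WT (2.03 ± 0.52, adjusted p = 0.498). With REG replicate 3 left out, S100a8, S100a9 and Camp were called (3.84, 3.90 and 3.75, adjusted p = 0.0265, 0.0444 and 0.0338).

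Red cell genes did not share one direction. The 19 tested erythroid genes summed to 5341, 2616 and 4251 RPM in REG and 2036, 761 and 1487 in WT. Hbb-bs, an adult beta globin, was at 232, 69.6 and 153 in WT and 901, 400 and 365 in REG (1.91 ± 0.58, adjusted p = 0.499). Alas2, the first enzyme of haem synthesis in red cells, was at 24.5, 10.7 and 18.8 in WT and 39.0, 29.6 and 53.2 in REG. Hba-a2, an alpha globin with a near-identical copy, was at 156 to 361 in WT and 255 to 901 in REG, which overlap. Gata1, the master transcription factor of red cell precursors, went the other way, with 15.3, 13.0 and 10.4 in WT and 4.19, 3.19 and 8.10 in REG. It was the only erythroid gene called without REG replicate 3 (−1.71, adjusted p = 0.0379). The median of the list was 0.37, and by library 0.86, −0.77 and 1.34. It ran from −0.04 without WT replicate 2 to 1.11 without REG replicate 2, so the libraries did not agree on the median gene. Nor did they in summed deposited values, where REG replicate 2 was at 887 and WT replicate 1 at 939.8, though in RPM all 3 REG libraries were above WT.

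Of the other blood lists, monocyte and macrophage genes were separate in their sum, at 1913, 2634 and 1235 RPM in REG and 757, 618 and 540 in WT, and were so in deposited values too (551 or more against 349.9 or less). Of these 17 genes, 4 were higher and 2 lower at an unadjusted p under 0.05 (2.13% and 7.34% of all genes). Their median was 0.37 (0.21 without REG replicate 2). C1qb, a chain of complement C1q made by macrophages, was at 4.89, 5.81 and 5.99 in WT and 20.8, 20.3 and 10.1 in REG (1.49 ± 0.37, adjusted p = 0.498). Lyz2, the lysozyme of macrophages and granulocytes, was at 183, 84.8 and 59.0 in WT and 450, 657 and 294 in REG. It alone made 64.2%, 73.6% and 53.5% of the list's reads in REG and 52.25%, 26.0% and 22.8% in WT. In deposited values the separation of the monocyte and macrophage sums therefore rests on Lyz2. Csf1r, the receptor that macrophages need, overlapped between groups. The 20 B lymphocyte genes summed to 506, 509 and 428 RPM in REG and 390, 177 and 177 in WT, with library medians of 0.70, −0.33 and 1.28. Pax5 alone made 32.4% and 38.1% of the sum in REG replicates 1 and 2, and without it the sums were 342, 315 and 401 in REG and 347, 170.4 and 159.6 in WT, so REG replicates 1 and 2 were below WT replicate 1. In deposited values REG replicate 2 (173) was also below WT replicate 1 (181). Within the list Cd79b, part of the B cell receptor, was at 1.08 to 2.84 in WT and 2.87 to 8.93 in REG. Jchain, which joins secreted antibodies, was at 4.80 to 15.4 in WT and 25.3 to 29.6 in REG. Pax5, a factor of B cells and midbrain, was at 3.74 to 20.01 in WT and 60.2, 65.6 and 12.1 in REG. Itga2b, the platelet integrin, was at 2.39 to 14.4 in WT and 15.2 to 24.8 in REG, yet its list of 11 megakaryocyte genes had library medians of 0.41, −0.84 and 1.37 (list median 0.27, and −0.43 without REG replicate 3). In RPM the megakaryocyte sums overlapped, at 112 to 215 in REG and 58.3 to 134 in WT. The 13 blood progenitor genes had a median of 0.03 (−0.39 without REG replicate 3), and their RPM sums overlapped, at 168 to 279 in REG and 138 to 188 in WT. Of these Spi1, a factor of myeloid precursors, was at 7.90 to 12.1 in WT and 16.4 to 24.7 in REG. The 13 T and NK lymphocyte genes summed to 32.6 to 38.7 RPM in REG and 21.9 to 32.8 in WT.

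**Figure D3:**
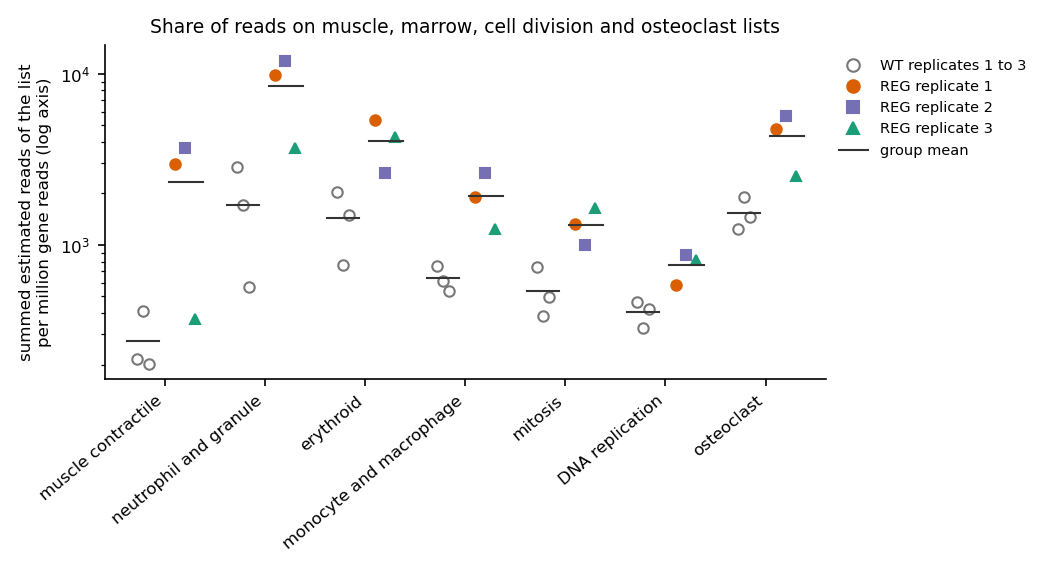
Summed estimated reads of 7 gene lists in RPM (log axis), with WT as open circles, REG as filled symbols and lines at group means. Muscle reads of REG replicate 3 (368) lie inside the WT range, while for the other 6 lists all 3 REG libraries lie above all 3 WT libraries in RPM, which in deposited values does not hold for the erythroid and mitosis lists.

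Genes of dividing cells were higher in REG replicates 1 and 3 when summed, and here REG replicate 3 was the highest. In mitosis, cyclin-dependent kinase 1 starts the division, spindle motors part the chromosomes and the chromosomal passenger complex checks their attachment. The 24 mitosis genes summed to 1316, 994 and 1635 RPM in REG and 740, 383 and 493 in WT. In summed deposited values, at 483, 337 and 729 in REG and 342, 203 and 237 in WT, REG replicate 2 was below WT replicate 1. Their median log2 change was 0.78, and 0.73, 0.49 and 1.40 by library. Of the 24, 8 were higher at an unadjusted p under 0.05 and 10 did not overlap and were higher (2.13% and 4.03% of all genes). None was lower in either count. More than 2-fold above the highest WT library were 5 genes in REG replicate 1, 7 in REG replicate 2 and 12 in REG replicate 3 (8.37%, 13.0% and 0.804% of all genes), against 1, 2 and 0 more than 2-fold below the lowest. Without REG replicate 3 the median was 0.49, and Birc5 alone of the list was called.

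Birc5, the survivin of the chromosomal passenger complex (chromosome 11, 117849251 to 117855743), was at 5.04, 2.22 and 3.00 in WT and 19.9, 17.3 and 9.30 in REG (2.07 ± 0.42, adjusted p = 0.466). Plk1, a kinase that drives entry into mitosis, was at 2.87, 2.30 and 2.08 in WT and 6.12, 6.12 and 6.67 in REG (1.27 ± 0.35, adjusted p = 0.498). Kif20a, a motor of the cleavage furrow, was at 3.48, 3.09 and 3.30 in WT and 9.46, 9.69 and 10.1 in REG. In Plk1 and Kif20a the REG libraries were nearly equal and clear of WT. Cdk1, the kinase named above, was at 6.51, 3.64 and 3.26 in WT and 11.1, 21.2 and 8.64 in REG. The most abundant members overlapped: Mki67, the proliferation marker Ki-67, was at 146, 78.6 and 93.9 in WT and 201, 92.9 and 314 in REG. Top2a, which untangles chromosomes, was at 41.6, 27.0 and 28.7 in WT and 49.2, 31.1 and 95.2 in REG. In both, REG replicate 2 was inside the WT range and REG replicate 3 the highest.

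The promoters of the 3 mitosis genes of smallest p with a single usable RefSeq entry are shown because CCAAT and TTTGAA are letters known from promoters of genes switched on in mitosis. Matches on either strand are in capitals (ATTGG is CCAAT on the other strand), with the stretches chosen as for the muscle genes.
Birc5, chr11:117848987-117849236, plus strand: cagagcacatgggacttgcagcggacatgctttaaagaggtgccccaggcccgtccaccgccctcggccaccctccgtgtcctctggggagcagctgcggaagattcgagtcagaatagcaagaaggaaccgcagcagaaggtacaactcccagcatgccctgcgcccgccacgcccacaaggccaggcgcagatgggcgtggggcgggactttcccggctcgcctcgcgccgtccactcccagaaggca
Plk1, chr7:122159185-122159434, plus strand: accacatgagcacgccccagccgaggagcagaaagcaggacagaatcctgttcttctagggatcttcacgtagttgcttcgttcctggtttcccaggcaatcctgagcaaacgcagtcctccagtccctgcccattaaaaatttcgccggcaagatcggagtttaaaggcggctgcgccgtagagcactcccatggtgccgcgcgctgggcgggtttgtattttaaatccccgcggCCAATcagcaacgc
Cdk1, chr10:69352939-69353162, minus strand: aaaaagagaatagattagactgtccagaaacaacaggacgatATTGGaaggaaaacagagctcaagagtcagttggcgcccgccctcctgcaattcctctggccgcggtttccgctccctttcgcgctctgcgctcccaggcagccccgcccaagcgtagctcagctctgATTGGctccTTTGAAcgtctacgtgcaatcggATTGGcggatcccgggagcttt
The Cdk1 stretch holds 4 matches, the Plk1 stretch 1 and the Birc5 stretch 0. In Cdk1 a further TTTGAA begins 15 bases before the RefSeq start and is not shown, since the stretch ends before an earlier annotated start. In Plk1 a TTTGAA lies 31 bases into the transcript and is not shown. On either strand, CCAAT was in 85.0% of 20 mitosis promoters of 300 bases and in 37.4% of all 32851, and TTTGAA in 70.0% and 17.9%. In the 27 contractile promoters CCAAT was in 37.0% and TTTGAA in 0%.

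DNA replication genes were less uniform. The 24 genes summed to 586, 872 and 820 RPM in REG and 463, 328 and 424 in WT. In deposited values REG replicate 1 (215) barely cleared WT replicate 1 (214). Mcm3 alone made 16.2% and 34.6% of the list's reads in REG replicates 1 and 2, and in deposited values the separation rests on it. The library medians were 0.23, 0.06 and 0.96 (list median 0.43, and 0.18 without REG replicate 3). Of the 24, 6 were higher and 1 lower at an unadjusted p under 0.05 (2.13% and 7.34% of all genes). Mcm5, a subunit of the replicative helicase, was at 8.50, 5.06 and 5.32 in WT and 14.5, 13.4 and 20.9 in REG (1.33 ± 0.38, adjusted p = 0.498). Mcm3, another subunit, was at 10.4, 10.9 and 12.5 in WT and 34.9, 102 and 27.1 in REG. Ccne2, a cyclin of S phase entry, was at 21.8, 21.9 and 20.8 in WT and 3.95, 3.07 and 12.7 in REG (−1.92 ± 0.52, adjusted p = 0.498). Mitosis genes are expressed by every dividing cell, marrow cells included. In RPM neutrophil genes were lowest in REG replicate 3 among the REG libraries, while erythroid and B lymphocyte medians were highest there (1.34 and 1.28), and the part of marrow in the mitosis result was not tested.

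**Figure D4:**
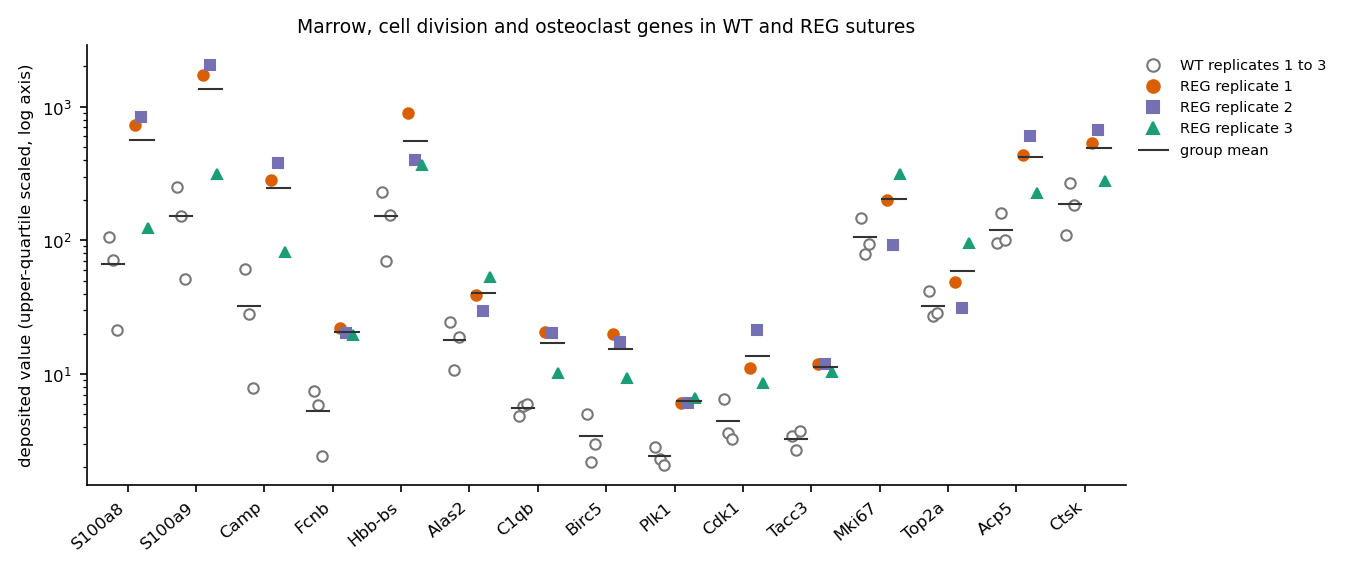
Deposited values (log axis) of marrow, cell division and osteoclast genes in each library, with WT as open circles, REG as filled symbols and lines at group means. S100a8, S100a9 and Camp are highest in REG replicates 1 and 2, while Fcnb, Plk1 and Tacc3 are nearly equal in the 3 REG libraries.

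Osteoclast genes, which code for the acid pump and enzymes that dissolve bone, were also separate when summed, at 4727, 5659 and 2532 RPM in REG and 1232, 1907 and 1449 in WT. The median of the 17 genes was 0.42. Of these 2 were higher at an unadjusted p under 0.05 and 5 did not overlap and were higher (2.13% and 4.03% of all genes). Acp5, the tartrate-resistant acid phosphatase, was at 95.8, 160 and 101 in WT and 432, 603 and 227 in REG (1.75 ± 0.50, adjusted p = 0.498, and 2.14 with adjusted p = 0.0406 without REG replicate 3). Ctsk, the collagen-cutting cathepsin K, was at 109, 269 and 183 in WT and 531, 671 and 277 in REG, where REG replicate 3 barely cleared WT replicate 2. Atp6v0d2, a subunit of the acid pump, was at 19.1 to 37.3 in WT and 40.8 to 86.4 in REG, and Mmp9, a matrix protease, was at 149 to 300 in WT and 270 to 429 in REG.

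Of 20 osteoblast genes 2 did not overlap and were higher, and 2 were lower (4.03% and 12.1% of all genes). The lower count is thus at the background. The higher ones, given after their values were seen, were Ifitm5, a membrane protein of osteoblasts, at 2.42 to 3.13 in WT and 3.33 to 5.26 in REG, and Phospho1, a phosphatase of mineralization, at 7.73 to 10.5 and 11.4 to 16.8. The 20 osteoblast genes had a median of −0.23, which trimmed-mean scaling turned to 0.27 (all genes −0.18 and 0.13) and leaving out WT replicate 1 moved to −0.64. Col1a1 and Col1a2, the chains of type I collagen, had the same order. Col1a1 was at 16370, 29123 and 18571 in WT and 7794, 7748 and 21288 in REG. Col1a2 was at 7766, 13631 and 8663 in WT and 3490, 3555 and 10964 in REG, so in both genes only REG replicate 3 was within the WT range. Runx2, the factor that osteoblasts need, was at 54.3, 98.3 and 81.5 in WT and 35.1, 29.6 and 57.7 in REG. Dlx5, another factor of bone formation, was at 7.32 to 11.97 in WT and 2.46 to 7.27 in REG. Pth1r, the parathyroid hormone receptor, was at 113, 144 and 137 in WT and 42.9, 59.6 and 82.2 in REG (−1.13 ± 0.44, adjusted p = 0.512). Dmp1, a matrix protein of osteocytes, was at 358, 383 and 306 in WT and 109, 114 and 248 in REG (−1.25 ± 0.47, adjusted p = 0.512), while the 10 osteocyte genes had library medians of −0.08, −0.998 and 0.24.

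Fibrous matrix and suture genes had lower medians than all genes. In RPM the fibrous matrix sums overlapped, at 54040 to 93866 in REG and 72670 to 116703 in WT. The 29 fibrous matrix genes had a median of −0.61 (−0.10 with trimmed-mean scaling, −0.06 with quantile normalization and −0.22 without REG replicate 2), and 5 of 29 did not overlap and were lower against 1 higher (12.1% and 4.03% of all genes), which is near the background. Col16a1, a collagen that sits on fibrils, was at 471, 935 and 566 in WT and 179, 142 and 263 in REG (−1.74 ± 0.39, adjusted p = 0.484, and −1.98 with adjusted p = 0.0303 without REG replicate 3). Tnn, the tenascin of periosteum, was at 418, 1234 and 932 in WT and 318, 191 and 386 in REG. Col6a2, a chain of collagen VI, was at 346 to 652 in WT and 251 to 357 in REG, and Thbs2, a thrombospondin of connective tissue, was at 199 to 400 in WT and 120 to 187 in REG. Among the 17 chondrocyte genes (median −0.44, −0.06 with trimmed-mean scaling and −0.27 without REG replicate 1) the cartilage collagen Col9a1 was at 2.88 to 6.64 in WT and 0.666 to 2.48 in REG. The 24 suture mesenchyme genes had a median of −0.59 and library medians of −0.76, −0.77 and −0.39 (all genes −0.26, −0.33 and −0.07). Of them 6 did not overlap and were lower, Twist1 among them, and 1 was higher, Ctsk (12.1% and 4.03% of all genes). In RPM the list summed to 2314, 2804 and 1775 in REG and 1209, 1626 and 1495 in WT, so every REG library was above WT. Ctsk alone made 62.55%, 70.6% and 35.1% of these reads in REG and 31.4% or less in WT. Six2, a factor of skull mesenchyme, was at 13.1, 15.2 and 11.9 in WT and 10.4, 0.650 and 5.58 in REG. En1, which sets the place of the coronal suture, was at 5.06 to 12.05 in WT and 1.66 to 5.79 in REG, and Ddr2, a collagen receptor, was at 56.0 to 77.2 in WT and 28.2, 18.3 and 62.0 in REG. The 25 genes known from craniosynostosis, which include Twist1, had a median of −0.75. Of these 7 did not overlap and were lower and none was higher (12.1% and 4.03% of all genes). Their RPM sums overlapped, at 1215 to 1421 in REG and 1258 to 1708 in WT. Fgfr3, a receptor of fibroblast growth factors, was at 13.1, 27.3 and 23.2 in WT and 5.68, 3.42 and 13.2 in REG. Fgfr2, its relative in bone-forming cells, was at 63.7 to 117 in WT and 25.1 to 69.2 in REG, and Ift122, a transport protein of cilia, was at 13.6 to 16.8 in WT and 4.02, 1.20 and 12.04 in REG.

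Signalling lists had negative medians in all 3 REG libraries, furthest from 0 in REG replicate 2. In RPM the BMP and TGF-beta sums overlapped, at 948 to 1059 in REG and 938 to 1273 in WT. So did the Wnt sums, at 679 to 792 in REG and 630 to 981 in WT. The FGF and Hedgehog sums were lower, at 548 to 683 in REG and 690 to 858 in WT. BMP and TGF-beta ligands bind paired receptor kinases, and secreted inhibitors hold them back. Of 26 such genes 5 were lower at an unadjusted p under 0.05 (7.34% of all genes), none higher. The median was −0.62 (−0.20 with trimmed-mean scaling). Nog, the inhibitor noggin, was at 3.19, 3.61 and 4.84 in WT and 0.667, 0.347 and 1.50 in REG (−1.91 ± 0.43, adjusted p = 0.49). It was called without REG replicate 3 (−2.29, adjusted p = 0.0213). Tgfb3, a ligand, was at 23.1 to 49.0 in WT and 9.34 to 22.5 in REG, and Tgfbr3, a co-receptor, was at 33.2 to 76.0 in WT and 13.2 to 33.6 in REG. Of 24 Wnt genes (median −0.55), 5 were lower (7.34% of all genes) and none higher. The inhibitor Dkk2 was at 2.87 to 7.67 in WT and 0.408 to 2.95 in REG. Its relative Dkk3 was at 28.7 to 64.8 and 5.69 to 27.4, and the ligand Wnt5b at 9.80 to 13.6 and 2.31 to 7.36. Of 25 FGF and Hedgehog genes (median −0.46, and −0.02 with trimmed-mean scaling), 6 were lower (7.34% of all genes) and none higher. Fgf18, a ligand of skull bone growth, was at 1.26, 0.822 and 1.25 in WT and 0.0282, 0.0336 and 0.292 in REG. Smo, the Hedgehog signal transducer, was at 57.4, 58.4 and 55.7 in WT and 16.6, 21.8 and 30.9 in REG (−1.34 ± 0.36, adjusted p = 0.498).

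The circadian clock list had the lowest median of the 39 lists, at −1.08, and −1.20, −1.56 and −0.26 by library. Of its 17 genes 8 were lower at an unadjusted p under 0.05 (7.34% of all genes), none higher. The groups did not overlap for 4, all lower (12.1% of all genes). Cry2, a repressor of the clock, was at 12.03, 16.5 and 10.6 in WT and 3.28, 3.34 and 7.17 in REG (−1.50 ± 0.40, adjusted p = 0.498). Bhlhe41, another repressor, was at 15.9, 18.0 and 17.9 in WT and 5.45, 2.34 and 13.1 in REG. Hlf, an output factor, was at 8.79 to 13.9 in WT and 2.35, 1.35 and 9.24 in REG, and Per2, a core repressor, was at 588, 571 and 539 in WT and 299, 205 and 274 in REG. Leaving out REG replicate 3, 7 of the 17 were called lower (4.18% of all genes). The hour at which tissue was taken is not given in the sources used here. Immediate early genes respond to stimuli within minutes to hours. Of 19 such genes 3 were lower at an unadjusted p under 0.05 (7.34% of all genes) and none higher. Their median was −0.32, 0.14 with trimmed-mean scaling, −0.77 without WT replicate 1 and −0.11 without WT replicate 2. Among them Nr4a2, an orphan nuclear receptor, was at 17.6, 18.9 and 13.9 in WT and near-equal in REG at 6.69, 5.29 and 5.49 (−1.47 ± 0.34, adjusted p = 0.498).

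**Figure D5:**
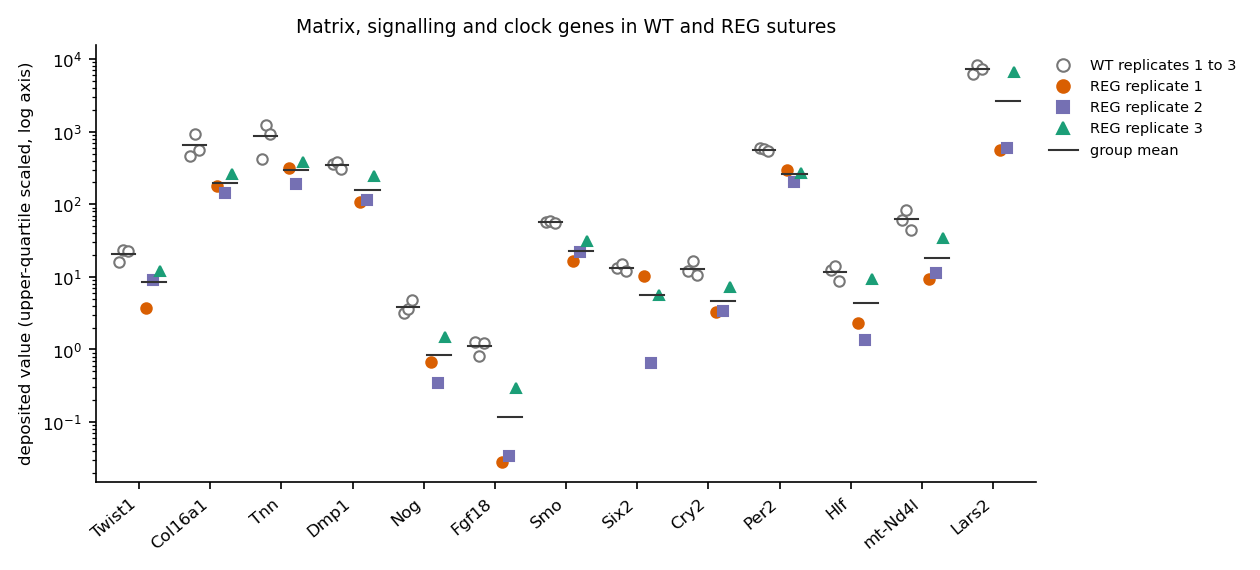
Deposited values (log axis) of Twist1 and of matrix, bone, signalling and clock genes in each library, with WT as open circles, REG as filled symbols and lines at group means. In most genes REG replicate 3 stands between WT and the other REG libraries, for example 30.9 for Smo, and for Lars2 it stands with WT at 6749.

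Genes of the respiratory chain differed by the genome that encodes them. The 13 mitochondrially encoded genes had a median of −0.81 (−0.43 without REG replicate 1), with 7 of 13 not overlapping lower (12.1% of all genes). Among them mt-Nd4l was at 61.3, 84.7 and 44.2 in WT and 9.37, 11.4 and 34.1 in REG, and its neighbour mt-Nd4, also a subunit of complex I, was at 622 to 966 in WT and 154 to 480 in REG. The 26 nuclear respiratory genes had a median of 0.53 (0.82 without REG replicate 1), with 12 of 26 not overlapping higher (4.03% of all genes) and none lower. Cox6c, a subunit of cytochrome c oxidase, was at 6.36, 7.90 and 8.004 in WT and 27.5, 24.5 and 10.5 in REG. Its partner subunit Cox5b was at 9.75 to 12.5 in WT and 22.4, 35.3 and 23.8 in REG, and Ndufa4 was at 2.00 to 2.70 in WT and 9.74, 19.7 and 3.75 in REG. Of the 30 ribosomal protein genes 14 did not overlap and were higher (4.03% of all genes), none lower. Their median was 0.58, and none was at an unadjusted p under 0.05. Rpl32 was at 31.5, 35.3 and 33.6 in WT and 134, 123 and 48.9 in REG, Rpl22 at 35.9 to 51.4 and 65.7 to 174, and Rplp0 at 129 to 168 and 179 to 297. Ribosomal protein genes have many pseudogene copies, so their reads may be split among them.

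Markers of other tissues that the sample could hold went in both directions. The 14 inflammation and wound genes had library medians of 0.93, 1.68 and −0.68, and Timp1, an inhibitor of matrix proteases, was at 4.82, 14.7 and 24.9 in WT and 104, 166 and 10.7 in REG. Of 12 Schwann cell genes (median −0.60) 3 were lower and 1 higher at an unadjusted p under 0.05 (7.34% and 2.13% of all genes). Sox10, the factor of these glia, was at 5.68 to 8.33 in WT and 1.51 to 3.29 in REG. S100b, a calcium-binding protein of the list, was at 1.36 to 2.31 in WT and 3.26 to 3.64 in REG. Adipoq, the fat cell hormone adiponectin, was at 0.653 to 0.734 in WT and 1.18, 1.96 and 3.21 in REG. It was the 1 of 15 adipocyte genes that was higher at an unadjusted p under 0.05, with none lower (2.13% and 7.34% of all genes). Aldh1a2, which makes retinoic acid in the meninges, was at 22.0, 28.2 and 43.4 in WT and 6.14, 6.27 and 17.0 in REG. Of 14 pericyte and smooth muscle genes (median −0.20, and 0.26 with trimmed-mean scaling) the kinase Mylk was at 178 to 245 in WT and 76.2, 54.0 and 187 in REG. Smooth muscle myosin Myh11 was at 12.8 to 22.1 in WT and 7.08, 5.29 and 15.2 in REG. The list's median was −0.04 without REG replicate 3 (all genes −0.24). In this list 1 of 14 members did not overlap and was higher, none lower (4.03% and 12.1% of all genes), so the higher count is near the background. The 14 endothelial genes, the 16 interferon genes and the 14 neuron and glia genes had no member at an unadjusted p under 0.05, nor had the 16 glycolysis and hypoxia genes or the 16 ER chaperone genes. Over all genes 2.13% were higher at that p and 7.34% lower. Of 12 tendon and ligament genes 1 was lower, of 14 keratinocyte genes 1 and of 9 meninges genes 3, with none higher (7.34% of all genes were lower), so the tendon and keratinocyte counts are at the background.

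The genes of smallest p over the whole table are given as values, since none passed the test. On the higher side, after Myh1 and Birc5, came Tacc3, a spindle protein, at 3.41, 2.68 and 3.76 in WT and 11.95, 11.8 and 10.4 in REG (1.69 ± 0.34, adjusted p = 0.466). The replication-dependent histone genes Hist1h2an and Hist1h4d, which have near-identical copies and are uncertain for that reason, were at 1.73 to 4.30 and 10.7 to 13.8 in WT and at 11.8 to 27.0 and 45.8 to 118 in REG. Gfi1b, a factor of red cell and platelet precursors, was at 0.449 to 0.974 in WT and 2.46 to 4.78 in REG, and Clec12a, a lectin of myeloid cells, at 5.63 to 10.3 and 17.1 to 39.4. Slc13a5, a citrate transporter, was at 3.17 to 5.64 in WT and 12.3 to 20.2 in REG. Atp7b, a copper pump, was at 0.596 to 1.24 and 2.35 to 7.73, and Stat4, a cytokine signal factor, at 0.594 to 1.17 and 1.94 to 4.94. All 10 genes had REG libraries entirely above WT. A small p in these same libraries favours such genes, so this is no separate support for agreement.

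On the lower side Casc1 was at 308, 207 and 170 in WT and 20.03, 3.85 and 23.9 in REG (−4.11 ± 0.64, adjusted p = 0.35). Kcnj10, an inward rectifier potassium channel, was at 85.2, 47.6 and 52.1 in WT and 3.77, 1.16 and 9.78 in REG (−3.91 ± 0.62, adjusted p = 0.35). Klf2, a transcription factor of endothelium and lymphocytes, was at 110, 62.9 and 58.0 in WT and 12.7, 16.8 and 20.6 in REG. Gabrd, a GABA receptor subunit, was at 33.2 to 67.7 in WT and 2.65 to 9.20 in REG, and the pheromone receptor gene Vmn2r79 at 408 to 830 and 20.001 to 114. Efna4, an ephrin ligand, was at 5.10 to 6.395 in WT and 0.242, 0.0903 and 1.34 in REG, and Prdm13, a neural transcription factor, at 15.9 to 25.3 and 1.11 to 6.42. Dnajc5b, Rtp2 and Prr14 had log2 changes of −2.38, −3.45 and −1.72. For all 10, REG replicate 3 alone against WT also had a negative change, from −3.19 in Casc1 to −1.39 in Prr14. REG replicate 3 was part of the fit that picked these genes, so this is no separate support for agreement.

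Agreement among the 3 REG libraries differed by list. All 3 were above all 3 WT libraries in the sums of neutrophil, monocyte and osteoclast genes, and narrowly of replication genes, both in RPM and in deposited values. In deposited values this rested on the single gene Lyz2 for the monocyte list and on Mcm3 for the replication list. For erythroid, B lymphocyte (Pax5 included) and mitosis genes this held in RPM only, with REG replicate 2 inside the WT range in deposited values. In both units the ribosomal protein and nuclear respiratory chain sums were also separate. In deposited values these were 1569 or more in REG against 1429 or less in WT, and 409 or more against 348 or less. Adipocyte sums were separate in both units too, narrowly in deposited values (59.0 or more against 57.7 or less). Suture mesenchyme, chondrocyte and ER chaperone sums were separate in RPM only. The 3 REG libraries did not agree on skeletal muscle or inflammation genes, where REG replicates 1 and 2 stood above WT and REG replicate 3 did not. The library nearest to WT over all genes, REG replicate 3, had the most mitosis genes more than 2-fold above WT (12 of 24) and the fewest contractile genes (1 of 30).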

How the data were processed

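RNA of the coronal suture was sequenced single-end on a NextSeq500, per the labels' protocols, with STAR 2.6.1d, Partek and the build mm10 listed per the submitters' processing notes. How reads were counted is not given in the sources used here. In the deposited matrix each cell holds an upper-quartile scaled signal per gene, not whole counts, and the authors' gene table pairs the values with symbols (4 statistics matched within 1e-06 for all 43644 genes). The authors' p-values, FDR (adjusted p-values) and log2 ratios per pair of groups come from that deposited table, with the ratio and fold taken between groups. Each value was divided by the lowest value of its library, less 1, to estimate reads. In the REG and WT libraries 30.6% to 39.3% of genes then had a whole number (within 0.001), genes without reads included. The estimated reads, and the depths summed from them, are therefore approximate.

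Genes at 0.367 or more in at least 3 of 9 libraries were tested with limma 3.58.1 (R 4.3.3) on log2(value + 0.367), all 9 libraries in 1 fit, contrast REG minus WT, two-sided, adjusted by Benjamini-Hochberg. The pseudocount is 1 millionth of the median library sum over all 9 libraries. The 39 gene lists and the members were chosen with earlier results of these data known. Named genes are Twist1, the 3 members of smallest p and the 2 of highest mean in lists, of which only some are given, and the 10 of smallest p per direction, without pseudogenes, small RNAs, predicted genes, antigen receptor segments and RIKEN clones. Cdk1, Lars2, Ifitm5 and Phospho1 fall outside this rule. The labels do not say that libraries came from separate animals, so p-values measure the spread between libraries. An exact permutation test of 3 against 3 cannot go below 0.1 and was not used. Alternatives were 3 scalings, filters and pseudocounts, limma with trend, array weights, only 6 libraries, a replicate block and leaving libraries out. The fit was also run on simulated data with independent values, the same spread of a gene in every library and an equal shift in all 3 REG libraries. No simulated REG library was made to lie near WT, so that run cannot show how the fit handles REG replicate 3. Promoters come from RefSeq (GRCm38.p6). Tables and figures used Python 3.11.15, pandas 2.3.3, numpy 2.4.6 and matplotlib 3.10.9.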

Additional observations from a re-analysis of the deposited data

How the results depend on the processing

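Of the 18 alternatives, 17 called no gene in either direction. Without REG replicate 3, 413 genes were called higher and 1203 lower, so over the WT and REG libraries left out in turn (MUT libraries were not left out singly) the counts ran from 0 to 413 higher and from 0 to 1203 lower. The replicate block, which uses the numbers shared by REG and WT, called 0 genes higher and 0 lower. Same-numbered libraries deviated from their group means with correlations of 0.10, −0.20 and −0.15, and unlike-numbered ones with −0.22 to 0.38. These values show no pairing by number, but with 3 libraries a group they cannot exclude it. The contractile median (1.48) ran from 1.06 without REG replicate 2 to 2.09 without REG replicate 3, and was 0.20 with REG replicate 3 as the only REG library. The neutrophil median (0.98) was 1.48 with trimmed-mean scaling, 1.33 with total-read scaling and 1.21 with array weights, and ran from 0.37 without WT replicate 3 to 1.28 without WT replicate 1. The mitosis median (0.78) was 1.27 with trimmed-mean scaling, 1.40 with REG replicate 3 as the only REG library, and 0.49 to 1.06 with single libraries left out. With single WT or REG libraries left out, the median changed sign in 8 of the 39 lists and moved by over 1.5 times with the same sign in 19 others, and 10 lists changed sign under at least 1 of the 3 scalings. Of the named genes, 4 changed sign with REG replicate 3 as the only REG library: Des (−0.33), Col1a1 (0.0413), Col1a2 (0.17) and Timp1 (−0.18). Col1a2 also changed sign with quantile normalization (0.0412). The causes were not tested. Without REG replicate 3, 54 of the 109 named genes were called, each in the direction reported, against 1.43% higher and 4.18% lower among all 28808 tested. Many named genes were picked by small p in a fit that held these same libraries. The count and the directions are therefore no separate support. A lone REG library is assumed to vary like the other groups. Depth was lowest in REG replicate 3 among the REG libraries, at 18276494 estimated reads, which limits low values such as Fgf18.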
